A study of Mus musculus with 38 samples.

Results

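The 46 genes described here encode proteins of DNA repair. They were taken by symbol from a fixed list of genes of double-strand break, excision and mismatch repair, and all 46 were present among the 25965 genes of the RNA table and in the table of promoter ChIP values. They were measured in neural stem/progenitor cells (NSPCs) grown as neurospheres from the subventricular zone (SVZ), a neurogenic niche beside the lateral ventricles, of young adult (3 months) and aged (18 months) mice. RNA-seq covered 3 derivations per age from male C57BL/6J/Babr mice and 1 derivation per age from C57BL/10 mice kept in another facility, so strain and facility cannot be told apart. H3K4me3, H3K27me3 and Input ChIP-seq and BS-seq and oxBS-seq of DNA methylation covered 3 derivations per age of the first strain. Each C57BL/6J/Babr derivation pooled the SVZ of several mice, and the cells had gone through a second passage in culture, so the values describe cultured cells and not the niche in the animal.

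Cells sense a broken DNA end through the Mre11a, Rad50 and Nbn complex and the kinases Atm and Atr, which activate the checkpoint kinases Chek1 and Chek2. A double-strand break is then joined directly, through the Ku proteins Xrcc5 and Xrcc6, or copied from the sister chromatid by homologous recombination, which needs Brca1 and Brca2 and runs in S and G2 phase. Damaged bases are removed by glycosylases and the endonuclease Apex1, bulky lesions by nucleotide excision repair, replication errors by mismatch repair, and cross-links by the Fanconi anaemia proteins. Many proteins of recombination, cross-link repair and replication-coupled ligation are made mainly in dividing cells.

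The RNA libraries held 16952486 to 41053972 reads, with 27183304 and 24582963 reads in the young adult and aged C57BL/10 libraries. Markers of NSPCs (8 genes, among them Nes and Sox2) summed to 6044 to 7865 RPM (reads scaled to a common library total) in the 6 C57BL/6J/Babr libraries. The summed level of 7 astrocyte markers was 2026 to 2400 RPM in young adult and 1829 to 2043 RPM in aged libraries, and that of 8 oligodendrocyte lineage markers 1169 to 1405 RPM. Neuronal markers summed to 9.3 to 15.7 RPM, ependymal markers to 31.4 to 101.0 RPM, and microglial, endothelial and pericyte markers each to under 8 RPM. In bulk RNA, fewer cells of a type and less RNA per cell cannot be told apart.

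All 46 genes were expressed, with a mean of 2.84 to 6.75 on the log2 RPM scale over the 6 C57BL/6J/Babr libraries, above the filter of -2. Of the 46 genes 18 (39.1%) overlap a gene annotated on the opposite strand, and the sources used here do not say whether reads were counted by strand, so reads of the overlapping parts cannot be told apart. Levels of different genes were compared per kilobase of exon, with the length taken over the exons of all annotated transcripts together. A gene with much exon sequence outside its main transcript therefore reads low on this scale. On that scale Apex1, the main endonuclease for abasic sites, stood highest at a mean of 30.8 RPM per kb. Apex1 shares 1070 bp with Tmem55b on the opposite strand, which had a mean of 5.92 log2 RPM beside 5.45 for Apex1. Parp1, which marks single-strand breaks with poly(ADP-ribose), followed at 17.6 RPM per kb and Rpa1, a subunit of the protein that coats single-stranded DNA, at 15.0 RPM per kb. The lowest levels per kb by this length were those of Brca2 (0.954), Msh3 (1.06) and Atr (1.11). The length used for Atr was 23629 bp, so its place depends on the annotated exons.

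No DNA repair gene passed the test for a change with age in C57BL/6J/Babr NSPCs. On the log2 RPM scale the difference of aged minus young adult ran from -0.14 (Xrcc5) to 0.22 (Fanca), with a median of 0.01 over the 46 genes beside 0.00 over all 14858 genes tested. In limma's moderated test without a replicate block, 0 of the 46 genes passed an adjusted p of 0.05, beside 0% of all genes. Before adjustment 0 of the 46 passed, beside 258 of the 14858 genes (1.74%). edgeR and DESeq2 on whole reads called 0 members as well, with 0 at an unadjusted p under 0.05 in either. The fit with the replicate block also called 0 members while calling 74 of all genes (0.498%). The 95% interval of the difference lay within a 1.5-fold change in either direction for all 46 genes. For no gene did the 3 aged libraries all lie on one side of the 3 young adult libraries, which happened for 5.2% of all genes tested. Of the 7 astrocyte markers 1 had a difference above 0, with a median of -0.20 and 0 called, the lowest being Gfap (-0.54, unadjusted p = 0.0117, adjusted p = 1.00 in limma) and Aldoc (-0.44, unadjusted p = 0.0485, adjusted p = 1.00). Their part in the values of the DNA repair genes was not tested.

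**Figure D1:**
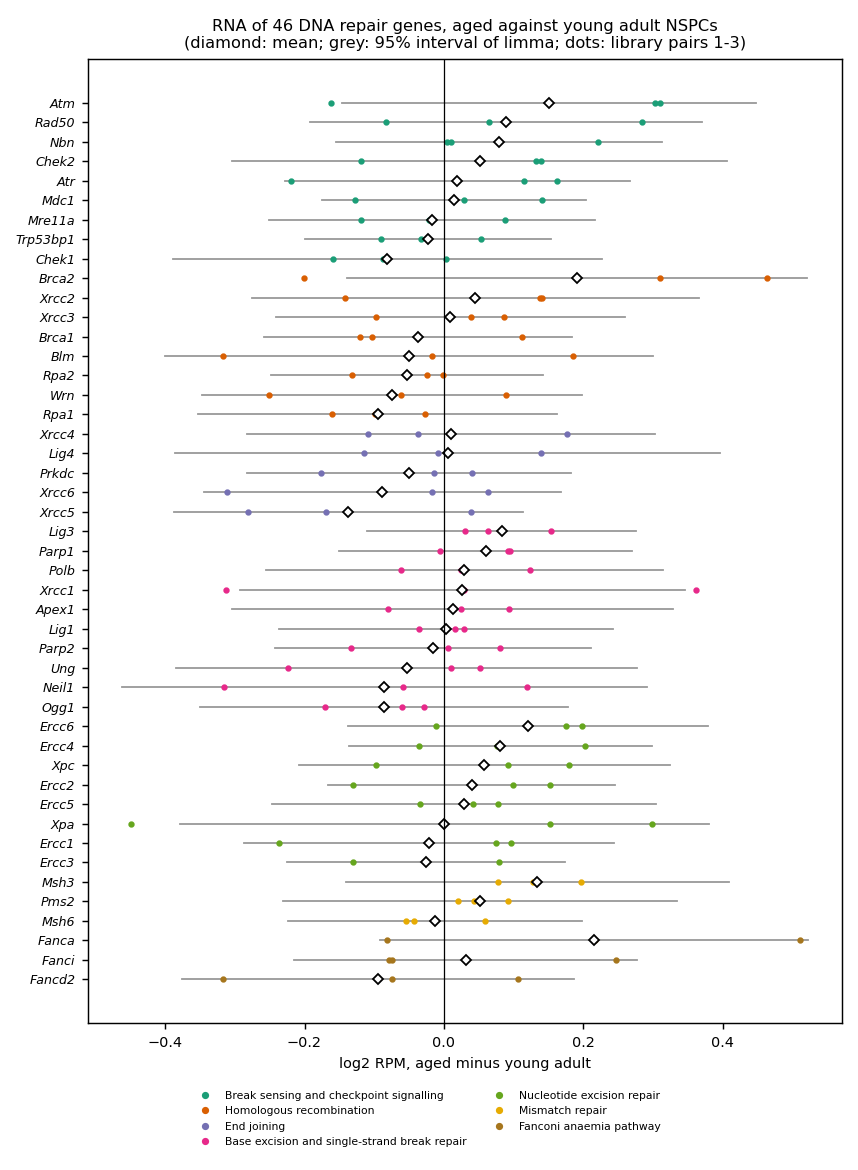
Difference in log2 RPM (x axis, aged minus young adult) for each of the 46 DNA repair genes (y axis, in 7 pathway groups). Diamonds are means of 3 derivations per age, grey bars the 95% interval of limma, and dots the differences between libraries of the same replicate number. The means run from -0.14 to 0.22 and every interval covers 0.

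Among the genes that sense breaks, Atm had the highest difference between ages. Its log2 RPM was 5.34, 5.07 and 4.88 in the young adult libraries and 5.18, 5.38 and 5.19 in the aged libraries. The difference was 0.15 ± 0.13 (SE). Here and for the other age differences the SE is that of limma without the replicate block, not the spread of the pairs. The groups overlapped, since the first young adult library lay above 2 of the aged libraries. Chek1 stood lowest in this group of 9 genes, at -0.08 ± 0.13, with 3.48, 3.49 and 3.30 in young adult and 3.39, 3.49 and 3.14 in aged libraries. The median over the group was 0.02, with 6 of 9 differences above 0.

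In homologous recombination, Brca2, which loads the recombinase onto single-stranded DNA, read 3.76, 3.55 and 3.51 in young adult and 3.56, 4.01 and 3.82 in aged libraries. The difference was 0.19 ± 0.14 and the groups overlapped, since the first aged library lay below the highest young adult library. Rpa1 was lower in the aged library of all 3 pairs, with 6.33, 6.41 and 6.56 against 6.17, 6.31 and 6.53, a difference of -0.10 ± 0.11. Between the pairs it moved further than between the ages. The median of the 8 genes was -0.04.

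In end joining, Xrcc5, one of the Ku subunits that cap broken ends, had the lowest difference of all 46 genes. It read 4.62, 4.50 and 4.39 in young adult and 4.45, 4.22 and 4.43 in aged libraries, a difference of -0.14 ± 0.11 (adjusted p = 1.00 in limma). Xrcc4, the partner of the ligase Lig4, stood highest of the 5 at 0.01 ± 0.13, with 3.26, 3.12 and 3.19 against 3.15, 3.08 and 3.37. Its sign turned when the C57BL/10 libraries were added with strain as a term (-0.05).

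In base excision and single-strand break repair, Lig3, a DNA ligase of nucleus and mitochondria, read 5.70, 5.55 and 5.57 in young adult and 5.73, 5.62 and 5.72 in aged libraries. It was higher in the aged library of all 3 pairs. The difference between the ages was 0.08 ± 0.08, and the groups overlapped. Ogg1, the glycosylase for 8-oxoguanine, was lower in all 3 pairs, at 3.42, 3.46 and 3.53 against 3.36, 3.29 and 3.50. Its difference was -0.09 ± 0.11. The 10 genes of this group had a median of 0.01.

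Ercc6, which starts repair at stalled RNA polymerase, had the highest difference in nucleotide excision repair, with 5.31, 5.22 and 4.98 in young adult and 5.30, 5.40 and 5.18 in aged libraries (0.12 ± 0.11). Ercc3, a helicase of the general transcription factor TFIIH, had the lowest at -0.03 ± 0.09, and its values lay between 4.76 and 4.92 in all 6 libraries. In mismatch repair Msh3 was higher in the aged library of all 3 pairs, at 3.62, 3.53 and 3.39 against 3.70, 3.73 and 3.51 (0.13 ± 0.12). Msh6, its alternative partner in the mismatch-binding dimer, differed by -0.01 ± 0.09.

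Fanca, a subunit of the complex that ubiquitinates Fancd2 and Fanci at cross-links, had the highest difference of all 46 genes. Its log2 RPM was 4.51, 4.21 and 4.02 in young adult and 4.43, 4.43 and 4.53 in aged libraries, a difference of 0.22 ± 0.13 with an unadjusted p of 0.144 in limma. The young adult libraries spread over more than the difference. Fancd2 read 4.14, 3.85 and 3.80 against 3.83, 3.78 and 3.90, a difference of -0.10 ± 0.12. Over all 46 genes, 4 were higher in the aged library of every pair and 3 were lower in every pair, beside 15.9% and 13.3% of all genes tested.

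Genes of the same processes outside the 46 were not called either. Of 77 other DNA repair genes found, 76 passed the filter, with differences of -0.35 to 0.27, a median of -0.01 and 1 unadjusted p under 0.05, that of Rev3l, the catalytic subunit of a translesion polymerase (0.27 ± 0.10, unadjusted p = 0.0308, adjusted p = 1.00 in limma). The ages did not overlap for 3 of the 76, 2 of them higher and 1 lower in aged cells, beside 5.2% of all genes tested. The medians were -0.05 for 37 S phase genes, 0.00 for 36 G2 and M phase genes and 0.00 for 20 p53 target genes, with 0 called in each and 0 at an unadjusted p under 0.05. Of the S phase genes 8 of 37 lay above 0, beside 7512 of all 14858 genes. The aged libraries all lay below the young adult ones for 2 S phase genes and 1 p53 target gene, beside 305 of all 14858 genes.

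Few DNA repair genes differed between derivations of different replicate number. With age as a term, limma's F test called 3 of 46 (6.52%) beside 22% of all 14858 genes, 3263 in number. The median range of the 3 derivation means was 0.18 log2 RPM over the members and 0.27 over all genes. All genes here include those down to a mean log2 RPM of -2, whereas the lowest member stood at 2.84. Of 76 other DNA repair genes 3 were called, with a median range of 0.19. Of the G2 and M phase genes 35 of 36 were called, with a median range of 0.65, and of the S phase genes 9 of 37. The difference between these shares was not tested.

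Apex1 (chromosome 14, 50924968 to 50927139, GRCm38) varied most of the 3 called genes. Its log2 RPM was 5.61 and 5.71 in the first young adult and aged derivations, 5.48 and 5.40 in the second and 5.25 and 5.27 in the third, a range of 0.40 (adjusted p = 0.0167, limma F test). Each pair stood apart from the next at both ages. Ercc5, the nuclease that cuts on the 3′ side of a bulky lesion, read 5.98 and 6.03 in the first pair and 5.69 to 5.76 in the others, a range of 0.29 (adjusted p = 0.0325). Rpa1 had pair means of 6.25, 6.36 and 6.54 (adjusted p = 0.0454), and edgeR did not call it (adjusted p = 0.0628). Without 1 library the number of members called ran from 0, without the third young adult or the third aged library (10% and 9.91% of all genes called), to 13 (28.3%), without the second aged library (44.4% of all genes). It was 11 (23.9%) without the second young adult library, beside 46% of all genes, and 5 (10.9%) without the first aged library, beside 26.1%.

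All 3 Fanconi anaemia genes and 7 other DNA repair genes were lower in the C57BL/10 libraries. In these libraries 10 of 46 genes were lower and 6 higher than in C57BL/6J/Babr at an adjusted p under 0.05 in limma, with age as a term. That fit took all libraries as independent, with no term for the pairs of C57BL/6J/Babr libraries that share a number. Its p-values and the shares of genes called may therefore be too confident. The 16 calls are 34.8% of the members, beside 29.7% of all 14828 genes tested, a share near the background. By direction, 21.7% of the members were lower, beside 11.5% of all genes, and 13.0% were higher, beside 18.2% of all genes. On the RPM scale the median of all genes lay 0.17 higher in C57BL/10. With TMM factors in limma that median was 0.00, and 11 members were lower and 1, Ercc1, higher, beside 13.5% and 4.02% of all genes. edgeR gave the same split of 11 and 1, beside 13.1% and 4.25% (17.3% in all, and 17.5% in limma with TMM). The 10 lower genes were called under both scalings, whereas the higher calls of Xrcc4, Xrcc5, Polb, Trp53bp1 and Ercc4 were not called with TMM.

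**Figure D2:**
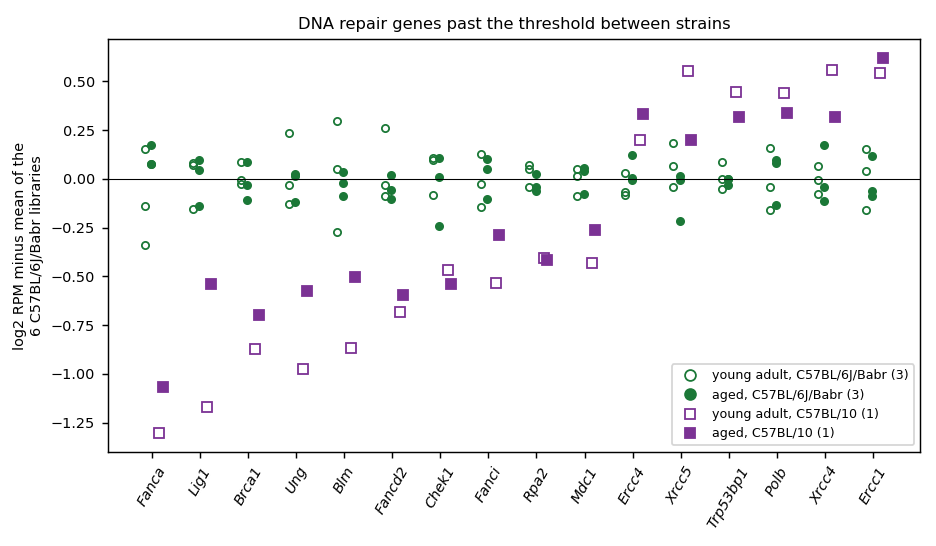
log2 RPM (y axis) relative to the mean of the 6 C57BL/6J/Babr libraries for the 16 DNA repair genes past the threshold between strains on the RPM scale (x axis). Circles are C57BL/6J/Babr and squares C57BL/10, open for young adult and filled for aged. Fanca lies lowest, at -1.18 on average, and Ercc1 highest, at 0.58, in the C57BL/10 libraries.

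Fanca (chromosome 8, 123268300 to 123318576), at 4.02 to 4.53 in the 6 C57BL/6J/Babr libraries, read 3.05 and 3.29 in the young adult and aged C57BL/10 libraries. The difference was -1.18 ± 0.13, or 2.27-fold lower (adjusted p = 8.64e-05, limma). The groups did not overlap. Fanca lies wholly within Gm20388, a gene annotated on the opposite strand at a higher level. Gm20388 itself differed by 0.18 between strains (adjusted p = 0.158, limma). Zfp276, which shares 1446 bp with Fanca on the opposite strand, differed by -0.02 (adjusted p = 0.874, limma). Fancd2 read 3.20 and 3.29 against 3.78 to 4.14, a difference of -0.64 ± 0.12 (adjusted p = 0.00386).

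Brca1 (chromosome 11, 101488764 to 101551955), the E3 ligase subunit that steers breaks into recombination, read 3.56 and 3.73 in C57BL/10 against 4.32 to 4.52, or 1.72-fold lower (-0.79 ± 0.10, adjusted p = 0.000248). Blm, the helicase that dissolves joined molecules, read 2.89 and 3.26 against 3.48 to 4.06 (-0.68 ± 0.16, adjusted p = 0.0122). Blm shares 468 bp with Gm17257 on the opposite strand, which itself was lower by 2.85 on the log2 scale. Homologous recombination had 3 lower genes of 8 and 0 higher, beside 11.5% of all genes lower, and 4 of 8 lower with TMM and in edgeR.

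Lig1 (chromosome 7, 13277283 to 13311433), the ligase that seals Okazaki fragments and long excision patches, read 4.27 in the young adult and 4.90 in the aged C57BL/10 library against 5.28 to 5.54 (-0.86 ± 0.14, adjusted p = 0.00192). Ung, the glycosylase that removes uracil behind the replication fork, read 1.86 and 2.26 against 2.71 to 3.08 (-0.78 ± 0.16, adjusted p = 0.00593). The other lower members were Chek1, Mdc1, Rpa2 and Fanci, by 0.35 to 0.50 on the log2 scale.

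Ercc1, which with Ercc4 cuts on the 5′ side of a lesion, was the highest of the others at 4.85 and 4.93 in C57BL/10 against 4.15 to 4.46. It was higher by 0.58 ± 0.11 on the RPM scale (adjusted p = 0.00346) and by 0.41 with TMM (adjusted p = 0.0272). The members of this direction were named after their values were seen.

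Genes of the cell cycle moved in the same libraries. Of 37 S phase genes 23 were lower in C57BL/10 and 0 higher on the RPM scale, with a median of -0.50. Of 36 G2 and M phase genes 31 were lower and 0 higher, with a median of -0.72. The shares of all genes were 11.5% lower and 18.2% higher on that scale, and 13.5% and 4.02% with TMM. Mki67, a marker of cycling cells, was lower by 1.08 ± 0.17. Of 76 other DNA repair genes 17 were lower and 8 higher on the RPM scale, and 20 lower and 0 higher with TMM. The lowest was Tdg, a glycosylase for T and U opposite G, at 3.70 against 6.51 (-2.82 ± 0.09). Tdg has near-identical copies in the mouse genome, so its value is uncertain. Summed NSPC markers stood at 8912 and 7470 RPM, astrocyte markers at 2523 and 1838 RPM and oligodendrocyte lineage markers at 1351 and 1644 RPM in the young adult and aged C57BL/10 libraries. Neuronal markers summed to 15.0 and 19.7 RPM there, with a median difference of 0.92 and 1 of 5 called, Snap25 (1.08, adjusted p = 0.0184 in limma). The astrocyte markers Aldoc (-0.97, adjusted p = 0.00348 in limma) and Gfap (-0.70, adjusted p = 0.010) were lower in C57BL/10. Over all 7 astrocyte markers the median difference was 0.25, with 4 above 0, 2 called lower and 0 higher. The myelin gene Mbp was lower (-3.27, adjusted p = 0.00558 in limma). Over the 7 oligodendrocyte lineage markers tested the median was -0.07, with 3 above 0, 1 called lower and 0 higher. Of 20 p53 target genes 12 were higher and 1 lower on the RPM scale, where the median of all genes lay 0.17 higher. With TMM 4 were higher and 1 lower. The part of these differences in the values of the DNA repair genes was not tested.

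The calls between strains rest on 1 library per age. Without the young adult C57BL/10 library 3 members (6.52%) were called, Brca1, Ercc1 and Fanca, beside 9.61% of all genes, and without the aged library 7 (15.2%), beside 12.5%. The 2 C57BL/10 libraries differed from each other by 0.63 for Lig1, the aged one being higher, whereas the age difference in C57BL/6J/Babr was 0.00 ± 0.10. The difference between these age effects was 0.63 ± 0.21, with an unadjusted p of 0.0175 and an adjusted p of 1.00 in limma. In that fit the single C57BL/10 library of each age is assumed to vary like the C57BL/6J/Babr libraries. It too had no term for the pairs of C57BL/6J/Babr libraries. The same difference lay above 0 for 32 of 37 S phase genes, with a median of 0.21. Among G2 and M phase genes it did so for 32 of 36, with a median of 0.13. For the members the count was 26 of 46 (median 0.03), and for all genes 7028 of 14828 (median -0.01). All these values come from the same 2 C57BL/10 libraries, so the genes are not independent of each other. The next smallest p among the members was that of Parp1 (0.29 ± 0.18, unadjusted p = 0.150 in limma, adjusted p = 1.00). The adjusted test called 0 members of 46 and 1 gene of 14828 (0.00674%). At an unadjusted p under 0.05 it counted 1 member and 240 genes (1.62%).

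Promoters of the 46 genes carried H3K4me3, the mark of active and poised starts, and little H3K27me3, the mark laid by Polycomb. One window of 5 kb per gene was used, that with the most H3K4me3, and the authors' pooled values give 1 value per age, so no spread is known. The mean of both ages ran from 4.70 to 6.45 log2 RPM for H3K4me3, with a median of 5.66 beside 5.36 for all genes tested in RNA. All 46 windows passed a log2 RPM of 1 in H3K4me3, beside 89.8% of those genes. Over all windows of each gene, 142 of 209 passed it for the members, beside 43646 of 72923 for all genes. At 3 of 46 windows (6.52%), beside 26.0% for all genes tested in RNA, H3K27me3 passed a log2 RPM of 1 in young adult or aged cells, and its mean of both ages was lower than that of Input at 43 of 46 (93.5%) beside 76.1%. The windows of Blm (1.26 in young adult and 1.13 in aged cells), Ercc4 (1.25 and 1.02) and Ercc6 (1.16 and 0.73) were these 3, that of Ercc6 in young adult cells alone.

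**Figure D3:**
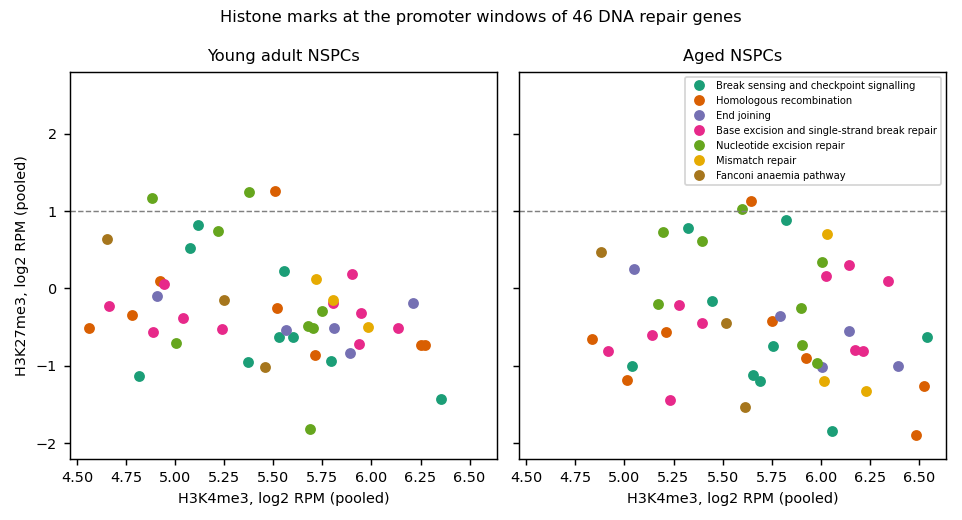
H3K4me3 (x axis) against H3K27me3 (y axis), both in log2 RPM of the pooled ChIP values, at 1 promoter window for each of the 46 DNA repair genes, in young adult (left) and aged (right) NSPCs. Colours are pathway groups and the dashed line is a log2 RPM of 1. All windows lie above 4.5 in H3K4me3 and most lie below 0 in H3K27me3.

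By the rule of a 1.5-fold difference with a log2 RPM above 1, 0 of 46 windows changed with age in either mark. The share of all windows was 0.212% in H3K4me3 and 1.5% in H3K27me3. In H3K27me3 only 3 of the 46 windows passed that level, so the others could not count as changed. Of all 25888 windows 9676 passed it in H3K27me3, and 389 changed. H3K4me3 was higher in aged cells at all 46, by 0.14 to 0.33 with a median of 0.23, and the median of all windows above the level was itself 0.21. After quantile normalization the members ran from -0.08 to 0.11, with 29 of 46 above 0. The largest positive differences were at Nbn (0.33), Msh6 (0.31) and Ercc6 (0.31) and the smallest at Blm and Xrcc5 (each 0.14). Brca2 had the lowest H3K4me3, at 4.56 in young adult and 4.83 in aged cells.

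H3K27me3 differences were larger, on values near or below 0. The largest positive differences were at Ercc5 (-1.82 to -0.97), Xpc (-0.51 to 0.34) and Atm (-1.44 to -0.62). The largest negative differences were at Neil1 (0.06 to -1.44), Brca1 (-0.73 to -1.89) and Msh3 (-0.16 to -1.19). These windows all lay below Input in both ages.

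The promoters were rich in CpG, and reference sequences are given for 4 genes named in the strain or methylation results. Of the 46 windows 41 (89.1%) had a CpG-rich start, beside 64.1% of genes tested in RNA. A gene on the opposite strand started within 1 kb of 20 of them (43.5%, beside 23.9%), among them Npat for Atm and Nbr1 for Brca1. RefSeq promoters, from 250 bases before to 50 after the start, were matched for 37 members and held a median of 22 CpG, beside 13 for all 16047 promoters of genes in the RNA table. They are printed 5′ to 3′ on the strand of the gene (GRCm38.p6, credited to RefSeq), with each CpG in capitals.

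Fanca, chr8:123318527-123318826, minus strand: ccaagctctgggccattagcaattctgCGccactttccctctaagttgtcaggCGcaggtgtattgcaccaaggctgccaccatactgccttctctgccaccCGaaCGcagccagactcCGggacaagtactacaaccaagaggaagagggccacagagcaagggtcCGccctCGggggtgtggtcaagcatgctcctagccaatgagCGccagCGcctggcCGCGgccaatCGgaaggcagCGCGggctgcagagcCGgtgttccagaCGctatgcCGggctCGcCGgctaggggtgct
Brca1, chr11:101551906-101552205, minus strand: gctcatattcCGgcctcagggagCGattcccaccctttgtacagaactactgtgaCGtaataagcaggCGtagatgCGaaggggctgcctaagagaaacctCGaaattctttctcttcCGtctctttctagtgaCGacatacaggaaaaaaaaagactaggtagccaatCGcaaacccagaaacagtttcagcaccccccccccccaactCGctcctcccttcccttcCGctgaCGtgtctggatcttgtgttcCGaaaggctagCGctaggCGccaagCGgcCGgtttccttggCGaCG
Ercc1, chr7:19344821-19345120, plus strand: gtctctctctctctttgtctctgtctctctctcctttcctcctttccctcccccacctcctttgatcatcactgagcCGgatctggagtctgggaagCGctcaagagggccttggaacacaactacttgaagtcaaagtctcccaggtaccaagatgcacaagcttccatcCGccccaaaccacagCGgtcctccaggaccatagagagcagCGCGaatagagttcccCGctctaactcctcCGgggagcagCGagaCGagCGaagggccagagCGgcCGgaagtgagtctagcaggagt
Neil1, chr9:57148256-57148555, minus strand: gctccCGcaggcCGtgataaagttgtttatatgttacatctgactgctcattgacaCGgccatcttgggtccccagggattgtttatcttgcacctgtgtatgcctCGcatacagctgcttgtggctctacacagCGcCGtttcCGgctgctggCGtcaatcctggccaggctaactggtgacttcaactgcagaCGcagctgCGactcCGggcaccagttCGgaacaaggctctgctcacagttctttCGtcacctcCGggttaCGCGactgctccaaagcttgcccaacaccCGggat

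Fanca and Brca1 held 19 CpG each, Neil1 17 and Ercc1 13. The E2F letters TTTGGCGC, TTTCCCGC, TTTCGCGC and TTTGCCGC, searched on both strands, occurred in 6 of the 37 promoters (16.2%) beside 2.82% of all promoters. Of the 9 lower in C57BL/10 with a promoter in the table, 1 held them. CCAAT occurred in 21 of 37 (56.8%, beside 38.8%) and TTTGAA in 1 (2.70%, beside 15.8%). A match is a description of letters only.

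Promoter methylation was near 0 and gene body methylation high, at both ages. 5-methylcytosine (5mC) was read from oxBS calls, in which 5-hydroxymethylcytosine does not count, summed over 500 bp on either side of the window's centre. The summed calls of the 46 promoters were 1.59% ± 0.326 (SD, n = 3) methylated in young adult and 1.45% ± 0.334 (n = 3) in aged cells. All genes gave 11.5% and 11.9%. Over both ages the median promoter was at 0.533% among the members and 1.18% among genes tested in RNA, and 89.1% and 72.5% of promoters lay under 5%. In gene bodies, from 1 kb after the start to the end of the gene, the members were at 83.0% ± 0.484 and 83.4% ± 0.0708 (n = 3 each), beside 76.2% and 76.5% for all genes. BS calls, which count both modifications, lay above oxBS calls in the members' bodies by 0.769 points ± 0.160 (SD, n = 3) in young adult and 0.617 ± 0.593 (n = 3) in aged libraries, beside 0.695 and 0.671 for all genes.

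**Figure D4:**
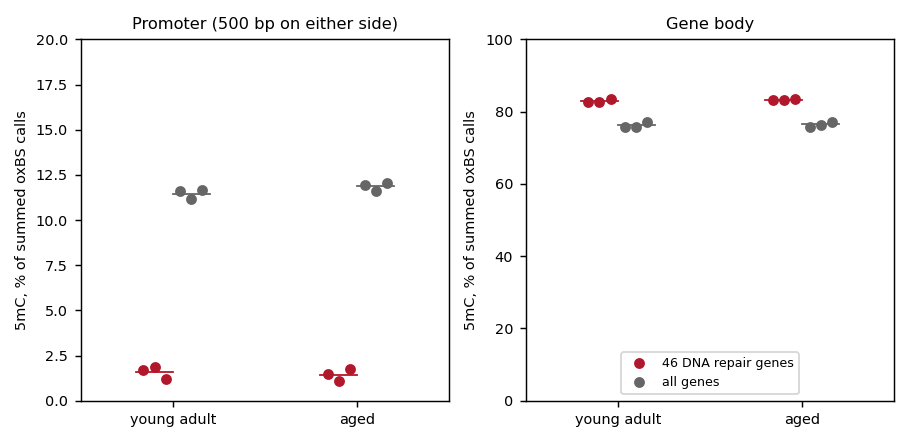
5mC as a percent of summed oxBS calls (y axis) in promoters (left) and gene bodies (right), for the 46 DNA repair genes (red) and all genes (grey). Points are the 3 libraries per age and lines their means. The DNA repair genes lie near 1.5% in promoters and near 83% in gene bodies at both ages.

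Of the 46 promoters 14 had no methylated call among 240 to 518, which allows up to 0.579% to 1.25% by counting error alone. Only 5 lay at 5% or more over all oxBS libraries, namely Neil1 (80.9% of 94 calls), Trp53bp1 (28.7%), Xrcc2 (6.93%), Lig4 (6.53%) and Chek1 (6.15%). At Neil1, Trp53bp1 and Chek1 the window used lay 1271, 1121 and 790 bp from the RefSeq start, and at the other 34 members with a RefSeq promoter within 500 bp. The Neil1 bases printed above lie outside the window that gave 80.9%. Around the RefSeq start, Neil1 had 1.26% of 317 calls methylated, Trp53bp1 0 of 297 and Chek1 0.247% of 405. Lig4 stayed at 6.65% there and was the only one of 37 at 5% or more.

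No member was called between ages at an adjusted p under 0.05 and 10 percentage points, in 44 promoters and 45 gene bodies tested. The background was 0% in both. In promoters 0 of 44 had an unadjusted p under 0.05 (2.49% of all regions), and in gene bodies 2 of 45 (4.38% of all regions). Trp53bp1, whose window lies inside the gene, had the largest positive difference of the 44 promoters, from 10.0%, 21.1% and 20.0% to 33.3%, 38.5% and 44.4%, on 49 and 52 calls (adjusted p = 1.00, quasi-binomial model). The aged oxBS libraries all lay above the young adult ones at 1 of the 44, Trp53bp1, beside 3.3% of all promoters tested. They all lay below at 1, Ercc6, beside 2.48%, with 3.28%, 4.17% and 4.55% in young adult and 1.23%, 1.25% and 1.19% in aged libraries on 201 and 245 calls (adjusted p = 1.00). In BS calls, which count both modifications, the ages overlapped at both. Trp53bp1 read 39.3%, 33.3% and 19.0% against 33.3%, 47.1% and 28.6%, and Ercc6 had means of 2.66% and 3.04%. The largest negative oxBS difference of the 44 was Lig4 (-4.54 points), whose BS mean was 2.51% in young adult and 6.99% in aged cells.

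In gene bodies Lig4, the ligase of end joining, had the largest positive difference, from 45.3%, 39.4% and 53% to 47.4%, 59.6% and 66.7%, a difference of 12 points on 534 and 395 calls (unadjusted p = 0.0258, adjusted p = 1.00, quasi-binomial model). The ages overlapped, and the BS means were 52.1% and 51.5%. Xpc, which recognises bulky lesions, stood at 78.3%, 79.9% and 84.5% in young adult and 85.5%, 86.3% and 84.1% in aged libraries, a difference of 4.43 points (unadjusted p = 0.0391, adjusted p = 1.00), beside BS means of 83.2% and 83.1%. Among the 45 gene bodies tested, those with at least 10 calls in every library, the largest negative differences were Ung (-4.93 points) and Xrcc6 (-4.54 points), neither past 0.05 before adjustment. Apex1, the gene body not tested, had means of 89.9% and 83.6% on 36 and 57 calls. The aged oxBS libraries all lay above the young adult ones at 6 of the 45 gene bodies, beside 5.23% of all tested, and all below at 3, beside 4.15%.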

How the data were processed

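RNA values were deposited as log2 RPM, reads scaled by the authors to a common library total. Per the labels' processing notes the tools were STAR 2.3.0, Bowtie2 2.2.5, Bismark 0.12.5 and Trim Galore, on GRCm38. Whole reads were recovered from the values of every library (100% of values between 1 and 1000 reads were whole within 0.02) for edgeR and DESeq2. ChIP values were deposited by the authors as log2 RPM pooled over derivations, with 1 value per age. Methylated and unmethylated counts at each CpG were deposited by the authors per library, beside a percent per site that was not used, and were summed per region. No column was left unmapped (0).

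The RNA filter was a mean of -2 (log2 RPM), and genes above it were tested with limma 3.58.1 (moderated test with trend, Benjamini-Hochberg over all genes, threshold 0.05), with edgeR 4.0.16 and DESeq2 1.42.0 as alternatives, in R 4.3.3. Regions with at least 10 calls per library were tested by a quasi-binomial model with moderated dispersion. Regions under 5% methylated, or as near to full methylation, took the common dispersion alone and none of their own. Of the 46 member promoters 41 lay under 5%. oxBS libraries held 13616283 to 21389132 calls, about 1.2 to 1.32 per position, so calls were summed and intervals cover counting error only. Deviations from the age means were correlated between RNA libraries that share a number (r = 0.659, 0.179 and 0.724), so the numbers were taken to pair them. The scripts were tested on simulated data. Python 3.11.15 was used for sums and figures.

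Named genes were, per pathway group, the highest and lowest age difference, up to 6 called for derivation and strain with the largest values, the smallest 2 p-values for the interaction, the largest rises and falls in the marks and 5mC, and the highest and lowest levels. The lists were 77 other DNA repair, S phase, G2 and M phase and p53 target genes and cell type markers. The members and lists were chosen with earlier results of these data known.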

Additional observations from a re-analysis of the deposited data

How the results depend on the processing

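Under every alternative run for age (edgeR, DESeq2, other filters, scalings, the replicate block and each library left out) 0 members were called. The number of all genes called was 0 without the block, 74 with it, 83 in edgeR with the replicate block (added after seeing the data) and 4 in DESeq2. Of the genes named for age, Xrcc4 (-0.053) and Ercc3 (0.0040) changed sign with all 8 libraries and strain as a term. With a library left out, Chek1 ran from -0.16 to 0.019, Xrcc4 from -0.074 to 0.070, Ercc3 from -0.072 to 0.0068, Msh6 from -0.072 to 0.045 and Fancd2 from -0.16 to 0.011. Between derivations, members called ran from 0 to 13 and all genes from 1473 to 6831 with a library left out. Between strains, members called ran from 3 to 17 and all genes from 1425 to 4638, and all genes called were 2572 in edgeR and 2601 in limma with TMM factors (added after seeing the data). The interaction called 0 genes in edgeR. In 5mC, 0 members were called under every alternative, while the replicate block called 1 promoter and 12 gene bodies of all genes and leaving out a library 0 to 1 of each. Same-numbered oxBS libraries did not deviate together in gene bodies (correlations of -0.001, 0.005 and 0.029). With Input of the same age subtracted, 3 members changed in H3K4me3 and 1 in H3K27me3, beside 2.87% and 3.12% of all windows. The causes of these changes were not tested.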
